A study of Mus musculus with 10 samples.

Results

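Endothelial cells line the blood vessels of the brain, and mural cells, which are pericytes on capillaries and smooth muscle cells on arteries and arterioles, wrap around them. A list of 36 mouse genes that mark these cells, 26 endothelial and 10 mural, was followed in RNA-seq data of the mouse medial habenula, a paired nucleus above the thalamus that holds cholinergic neurons. The list was matched by gene symbol, and a mean of at least 0.5 FPKM (fragment counts divided by gene length and library size) over the 10 libraries was required. All 36 genes were found and all 36 passed, of 17426 genes at that level and 56691 in the table.

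Per the series' design text, all 10 mice were wild type. The withdrawal group was 6 mice that received nicotine ditartrate intraperitoneally at 4 mg/kg, 2 injections a day for 14 days, with saline in its place from day 15. The control group was 4 mice given intraperitoneal saline for 17 days, and tissue from both groups was taken on day 17. The number of libraries equals the number of mice in each group. The source label names FACS-isolated cholinergic neurons, whereas the design text names tissue. Ages and sexes are not given in the sources used here.

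In brain endothelium, claudins and occludin seal the junctions between cells, transporters carry nutrients across, and few vesicles cross the cell; together these features make the blood-brain barrier. Endothelial cells receive vascular endothelial growth factor through Flt1 and Kdr and angiopoietins through Tek, and send PDGF-B to the Pdgfrb receptor on mural cells. Smooth muscle cells hold contractile proteins that set the diameter of arterioles, while pericytes on capillaries hold little of them. The choroid plexus and the meninges, which adjoin the habenula, carry vessels of their own, and those of the choroid plexus are fenestrated.

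Library totals ran from 15023448 to 22026333 counts. Control 2 and withdrawal 2 stood apart: transcripts of 8 genes that mark the medial habenula summed to 9.99 and 11.5 CPM (read counts brought to the same library size by TMM) in them and to 701 to 1029 CPM in the other libraries. Chat, which makes acetylcholine, was at 0.03 and 0.04 FPKM in control 2 and withdrawal 2 and between 5.7 and 8.8 FPKM in the other 8. In control 2, 6 hippocampal and cortical markers summed to 1309 CPM, and no other library exceeded 263 CPM. Results are therefore given for all 10 libraries and for 8 libraries (3 control, 5 withdrawal) without these libraries. Vessel transcripts were present in every library whichever label applied: the 26 endothelial genes summed to 489 to 757 CPM and the 10 mural genes to 122 to 206 CPM. Astrocyte, microglial and ependymal markers were also present, up to 2138, 359 and 313 CPM. Transcripts of tissue that borders the habenula varied as well: 7 choroid plexus markers summed to 80.9 CPM in control 2, 110 CPM in withdrawal 3 and 2245 to 13357 CPM in the other 8. In bulk RNA, fewer cells of a type and less RNA per cell cannot be told apart.

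The levels of the members, compared per gene length, spanned from 24.9 FPKM for both Itm2a (SD 4.32 over 10 libraries), a membrane protein of endothelium, and Vtn (SD 3.76), the vitronectin that pericytes secrete, to 1.01 FPKM for Icam2, an adhesion molecule. Next in order came the junction scaffold Tjp1 at 16.9 ± 2.0 FPKM (SD, n = 10) and Ly6c1, a surface antigen of brain endothelium, at 13.9 ± 2.90 FPKM. Cldn5, the main claudin of the barrier, followed at 10.8 ± 2.10 FPKM. The ranges of 1 SD overlapped between Tjp1 and Ly6c1 and between Ly6c1 and Cldn5. Podxl, Myl9 and Ocln lay close together, at 7.77, 7.72 and 6.79 FPKM. The transcription factors of endothelial identity were low, from 1.12 FPKM for Fli1 to 2.69 FPKM for Sox18.

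Flt1, Tek and Tjp1 were the steadiest, with a highest FPKM 1.39, 1.44 and 1.42 times the lowest. The contractile genes Myh11 and Acta2 varied most, at 7.38 and 6.17 times, followed by Cd34, Slc38a5 and Anpep at 5.29, 5.16 and 5.16 times. Kdr varied 4.61 times although its sister receptor Flt1 was among the steadiest. Withdrawal 3 held the lowest CPM of 17 of the 36 members, 15 of them endothelial. Control 1 held the highest CPM of 11 members, and withdrawal 2 that of 10.

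**Figure D1:**
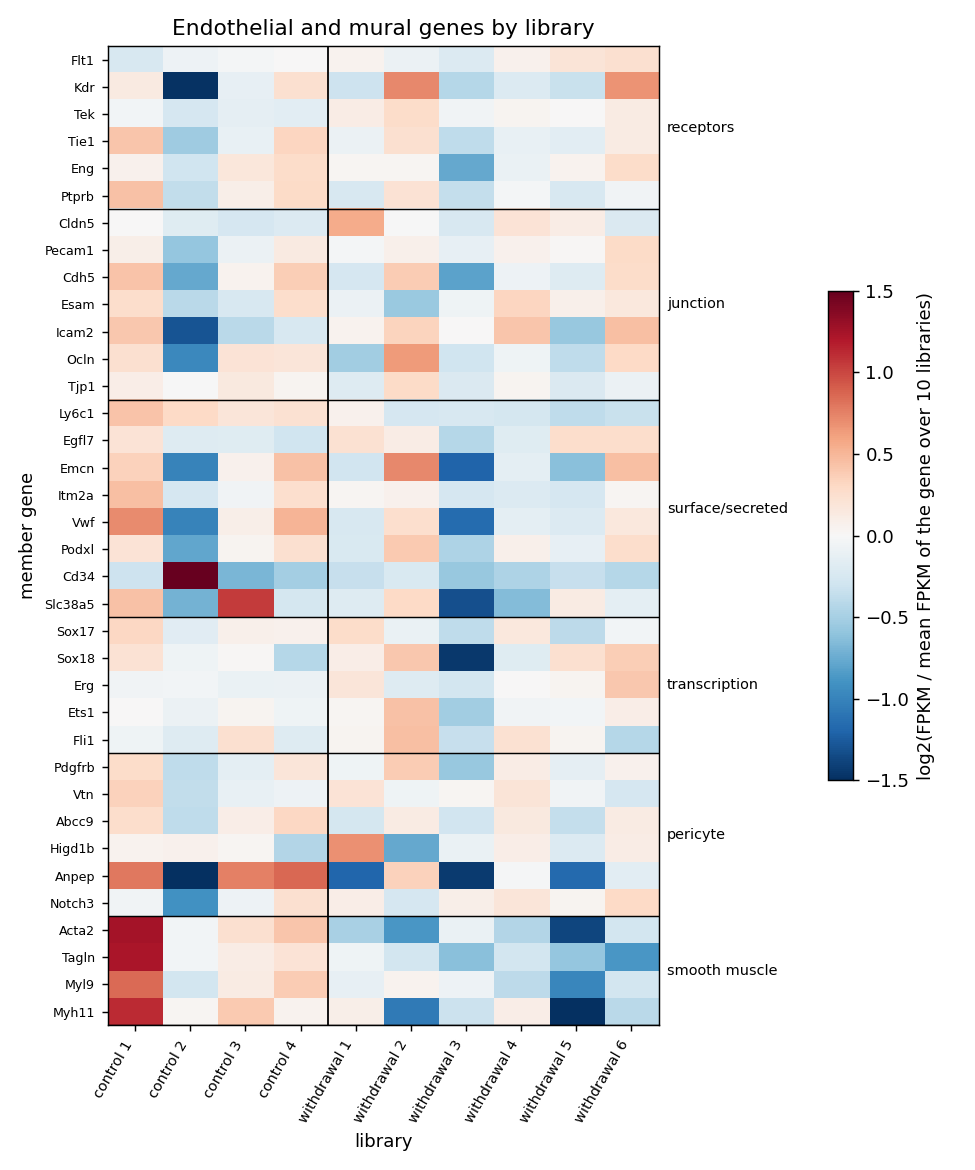
Heat map of the 36 members (rows, by role) in the 10 libraries (columns, controls left of the line); colour is the log2 ratio of a gene's FPKM to its mean over the 10 libraries, limited to 1.5 either way. The smooth muscle rows are high in control 1 and low in withdrawal 5, the Cd34 row is high in control 2 alone, and many endothelial rows are low in control 2 and withdrawal 3.

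The comparison of withdrawal with control asks which of these vessel transcripts differ in mice that had received nicotine and then stopped. With all 10 libraries, none of the 36 members passed edgeR's quasi-likelihood test at an adjusted p of 0.05, against 29 of 17426 genes (0.166%), of which 24 were lower (0.138%) and 5 higher (0.0287%). At an unadjusted p under 0.05, 6 members were lower and none was higher, against 8.57% of genes lower and 6.32% higher. These 6 were Ly6c1, Itm2a and all 4 smooth muscle genes, Acta2, Tagln, Myl9 and Myh11. DESeq2 called 3 members, Ly6c1, Acta2 and Tagln, all lower, against 407 of 16967 genes with an adjusted p (2.4%), of which 247 were lower (1.46%). In the same 3, every withdrawal library lay below every control library, which held for 274 genes (1.57%).

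With 8 libraries, edgeR called 7 members, all lower in withdrawal: Ly6c1, Ptprb, Tjp1, Acta2, Tagln, Myl9 and Anpep. The background of that fit was 2116 genes (12.1%), of which 1179 were lower (6.77% of genes tested). Of these 7, Ptprb and Anpep were called again when control 1, the control highest in the smooth muscle genes, was left out too, against 1632 genes (9.37%), 892 of them lower (5.12%). In that fit of 2 controls and 5 withdrawal libraries the adjusted p of Ly6c1, Acta2, Tagln, Myl9 and Tjp1 lay between 0.0532 and 0.161.

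The mural genes had a median log2 change of -0.43 with 8 of 10 lower, and the endothelial genes one of -0.043 with 16 of 26 lower. Over all genes tested the median was 0.017, with 47.3% lower. With 8 libraries the medians were -0.59 for mural genes, -0.20 for endothelial genes and 0.011 for all genes tested. Within the mural list, the 4 smooth muscle genes had a median of -0.95 and the 6 pericyte genes one of -0.040. Within the endothelial list, the medians were -0.058 for the receptors, -0.026 for junction genes, -0.34 for surface, secreted and transport proteins and 0.0057 for transcription factors.

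**Figure D2:**
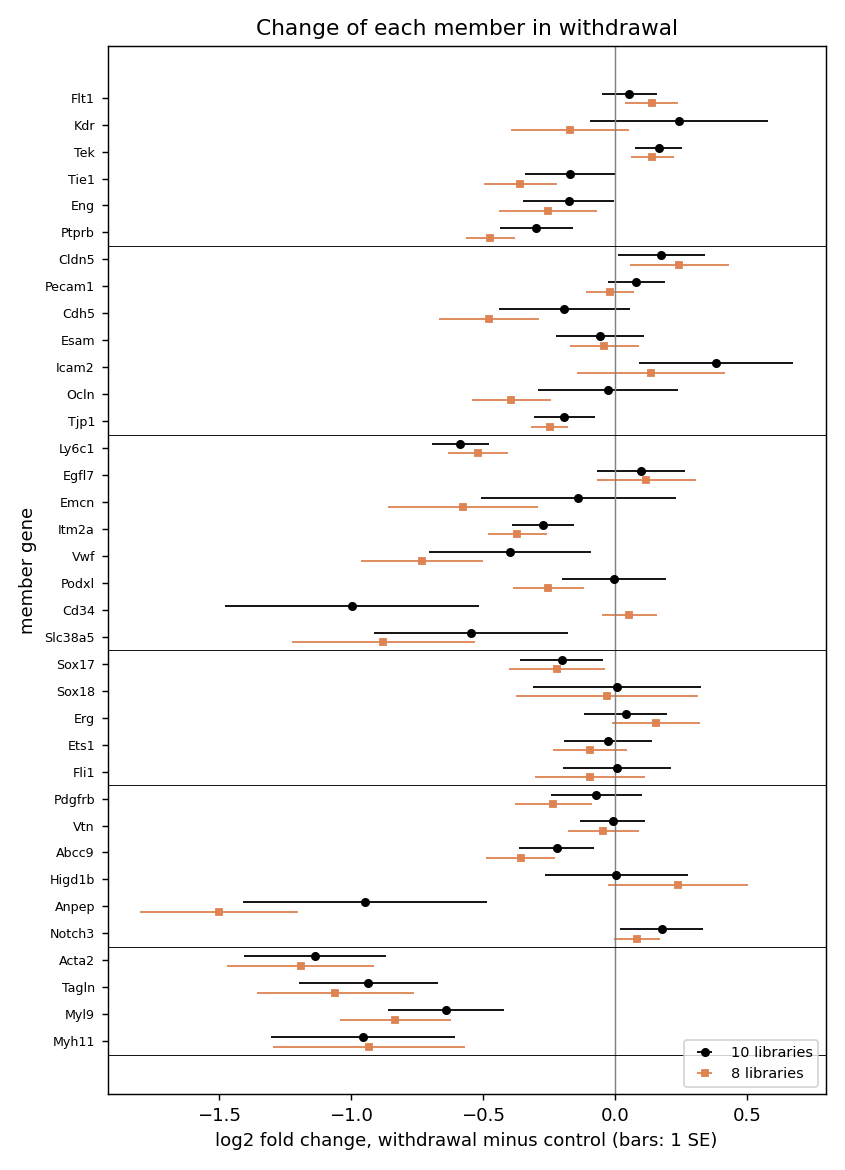
Log2 fold change of each member, withdrawal minus control, with bars of 1 SE, from edgeR with all 10 libraries (black circles) and with 8 libraries (orange squares); lines separate the roles in the order of the heat map. All 4 smooth muscle genes lie left of 0 in both fits, while Cd34 moves from -0.997 to 0.05 when control 2 and withdrawal 2 are left out.

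All 4 smooth muscle genes were lower in withdrawal, with log2 changes between -1.14 and -0.64, and none passed the threshold over 10 libraries. Acta2 (ENSMUSG00000035783), the smooth muscle actin of arteriolar walls, was at 22.3, 10.9, 11.3 and 12.5 CPM in controls 1 to 4. In withdrawal 1 to 6 it was at 6.77, 5.28, 8.60, 6.91, 3.65 and 7.58 CPM. Every control was above every withdrawal library, and control 1 stood far above the other controls. The means were 14.2 ± 5.42 CPM (SD, n = 4) in controls and 6.47 ± 1.75 CPM (SD, n = 6) in withdrawal. The log2 change was -1.14 (SE 0.27, edgeR adjusted p = 0.196), -1.19 with 8 libraries (adjusted p = 0.0247) and -0.85 without control 1 alone (adjusted p = 0.207).

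Tagln (ENSMUSG00000032085) encodes transgelin, an actin-binding protein of smooth muscle. It was at 4.92, 2.46, 2.31 and 2.43 CPM in the controls and at 2.02, 1.79, 1.35, 1.76, 1.43 and 1.12 CPM in withdrawal 1 to 6. The groups again did not overlap, and control 1 was again the highest. Its log2 change was -0.93 (SE 0.26, edgeR adjusted p = 0.250), -1.06 with 8 libraries (adjusted p = 0.0463) and -0.62 without control 1 alone (adjusted p = 0.224).

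Myl9 (ENSMUSG00000067818), the regulatory light chain of smooth muscle myosin, was at 15.9, 8.71, 9.79 and 11.4 CPM in the controls and at 8.14, 9.37, 8.20, 6.74, 4.54 and 7.10 CPM in withdrawal. Withdrawal 2 exceeded control 2, so the groups overlapped, and without these libraries they did not. Its log2 change was -0.64 (SE 0.22, edgeR adjusted p = 0.273), -0.83 with 8 libraries (adjusted p = 0.0326) and -0.46 without control 1 alone (adjusted p = 0.306). Myh11 (ENSMUSG00000018830), the smooth muscle myosin heavy chain, was at 17.6, 9.94, 10.8 and 8.41 CPM in the controls. It was at 8.67, 3.99, 6.40, 8.73, 2.42 and 5.98 CPM in withdrawal. Control 4 lay below withdrawal 1 and withdrawal 4, and the log2 change of -0.96 (SE 0.35, edgeR adjusted p = 0.280) did not pass with 8 libraries either (adjusted p = 0.122). Without control 1 alone the log2 change of Myh11 was -0.71 (adjusted p = 0.337).

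**Figure D3:**
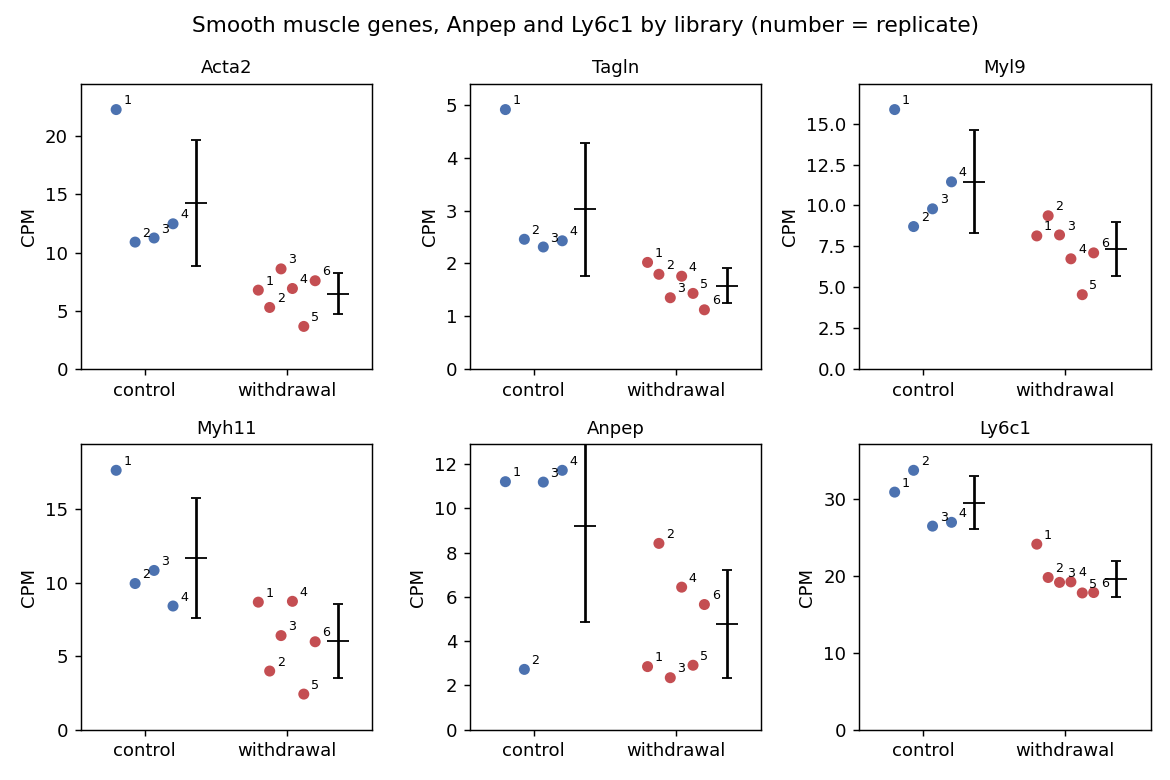
CPM of the 4 smooth muscle genes, Anpep and Ly6c1 in each library (blue, control; red, withdrawal; numbers are replicates), with the mean and SD beside each group. Controls and withdrawal libraries of Acta2, Tagln and Ly6c1 do not overlap, and control 1 is the highest in each smooth muscle panel.

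Contractile genes of smooth muscle are textbook targets of serum response factor, which binds the CArG box, a pair of C, a run of A or T and a pair of G that read alike on both strands. The promoters of the smooth muscle members were therefore searched for it, in the 250 bases before the start in RefSeq (GRCm38.p6). Promoters were matched for 21 of the 36 members, among them Acta2 and Myl9. An exact box was found in 1.47% of all 32851 promoters and a box with at most 1 central G or C in 8.59%. Among the matched members, Myl9 alone held an exact box, and Acta2, Myl9, Kdr, Egfl7, Eng and Ocln held at least the looser form, so that the looser form was not limited to smooth muscle genes. The boxes of Acta2 and Myl9 are shown with their flanks and the box in capitals, because these are the smooth muscle members with a promoter in the table. Those of Acta2 end 75 and 25 bases before the start, on the minus strand, and those of Myl9 end 152 and 90 bases before it, on the plus strand. A match describes letters and not binding.
Acta2 site 1, chr19:34255438-34255467: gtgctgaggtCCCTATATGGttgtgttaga
Acta2 site 2, chr19:34255388-34255417: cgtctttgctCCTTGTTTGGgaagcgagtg
Myl9 site 1 (the exact box), chr2:156775293-156775322: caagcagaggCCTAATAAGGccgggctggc
Myl9 site 2, chr2:156775355-156775384: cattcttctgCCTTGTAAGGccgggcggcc

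Taken as a score, the mean log2 CPM of the 4 smooth muscle genes was 2.82 to 3.74 in the controls and 1.52 to 2.51 in withdrawal, with no overlap. The pericyte score overlapped, at 3.36 to 3.96 in the controls and 3.29 to 3.81 in withdrawal, as did the endothelial score, at 3.91 to 4.22 and 3.52 to 4.25. The endothelial score exceeded the mural score by 0.58 ± 0.17 (SD, n = 4) in controls and by 0.94 ± 0.26 (SD, n = 6) in withdrawal. This gap ran from 0.35 to 0.76 in controls and from 0.61 to 1.27 in withdrawal, so the groups overlapped. No p is given for scores, since the genes were chosen with results of these data known.

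**Figure D4:**
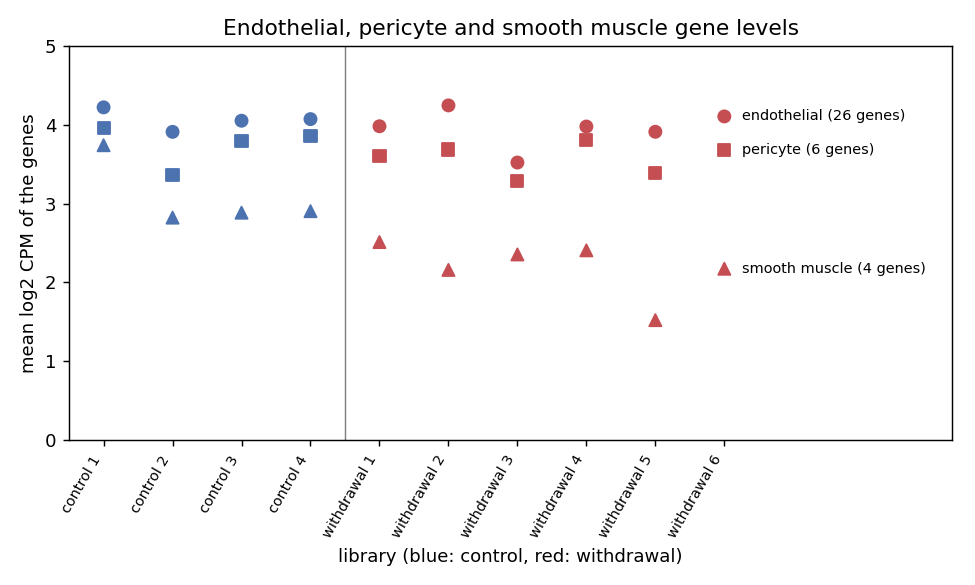
Mean log2 CPM of the 26 endothelial (circles), 6 pericyte (squares) and 4 smooth muscle genes (triangles) in each library (blue, control; red, withdrawal). The triangles of the controls, 2.82 to 3.74, all lie above those of withdrawal, 1.52 to 2.51, while circles and squares of the groups overlap.

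Markers of meningeal fibroblasts, cells of the membranes that larger vessels run through, moved in the same direction as the smooth muscle genes. All 10 had a negative log2 change (median -0.60), none past the threshold. With 8 libraries the median was -1.34 and 5 of 10 were called lower, against 6.77% of all genes tested. None of the 10 was at 0 in any library. Their summed level was 85.1 to 403 CPM in controls and 111 to 354 CPM in withdrawal. Pdgfra, which is not limited to these cells, held 54.5 of the 85.1 CPM in control 2. It also held 62.1 of the 111 CPM in withdrawal 3. Pdgfra was among the 5 called with 8 libraries (edgeR adjusted p = 0.00182). Without control 2 and withdrawal 2 the sums did not overlap, at 320 to 403 CPM in controls and 111 to 254 CPM in withdrawal. In these 8 libraries, 9 of the 10 genes had every withdrawal library below every control, against 11.1% of all genes tested. Control 2 had a meningeal sum of 85.1 CPM with 10.9 CPM of Acta2, and withdrawal 2 had 354 CPM with 5.28 CPM. The part of meningeal tissue in the smooth muscle values was not tested.

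Among the pericyte genes, Pdgfrb, Vtn, Abcc9, Higd1b and Notch3 had log2 changes between -0.22 and 0.18 in 10 libraries, and none was called in either fit. Pdgfrb, the receptor that keeps pericytes on the vessel wall, was at 23.2 to 30.7 CPM in controls and 16.8 to 33.9 CPM in withdrawal, with a log2 change of -0.07 (SE 0.17). Vtn had a log2 change of -0.0083 (SE 0.12), and Notch3, the receptor of mural cells for signals from endothelium, 0.18 (SE 0.16). Abcc9, a potassium channel subunit of pericytes, had -0.22 (SE 0.14). Higd1b, a mitochondrial protein enriched in pericytes, had 0.0048 (SE 0.27).

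Anpep (ENSMUSG00000039062), an aminopeptidase of pericytes, had the largest change among the pericyte genes. It was at 11.2, 2.73, 11.2 and 11.7 CPM in controls 1 to 4 and at 2.85, 8.42, 2.35, 6.44, 2.91 and 5.66 CPM in withdrawal 1 to 6. Control 2 lay among the low withdrawal libraries, and the other 3 controls lay above all of withdrawal. The log2 change was -0.95 (SE 0.46, edgeR adjusted p = 0.360) with 10 libraries and -1.5 (SE 0.30, adjusted p = 0.0132) with 8. The 4 libraries lowest in Anpep, control 2 and withdrawal 1, 3 and 5, were also the 4 with the lowest meningeal fibroblast sums, 85.1 to 146 CPM against 245 to 403 CPM in the rest. That held for 9 of the 36 members (25.0%), namely Kdr, Cdh5, Emcn, Ptprb, Vwf, Podxl, Ocln, Abcc9 and Anpep, and for 4.94% of all genes tested. This pattern was noticed in the data, and its part in the change of Anpep was not tested.

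Of the 6 endothelial receptors, Flt1 and Tek had a log2 change of 0.05 (SE 0.11) and 0.16 (SE 0.09), and the groups overlapped in both. Kdr, the main signalling receptor of vascular endothelial growth factor, was at 29.4, 11.4, 24.8 and 31.3 CPM in controls and at 21.6, 44.9, 19.3, 23.2, 21.4 and 41.3 CPM in withdrawal. Its lowest value was in control 2 and its highest in withdrawal 2. The sign of its log2 change turned from 0.24 (SE 0.34) with 10 libraries to -0.17 (SE 0.22) with 8. Tie1, a partner of Tek, had -0.17 (SE 0.17), and Eng, a co-receptor for TGF-beta family ligands, -0.18 (SE 0.17).

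Ptprb (ENSMUSG00000020154), the phosphatase that restrains Tek, was at 57.7, 39.4, 46.0 and 51.6 CPM in controls and at 36.1, 50.8, 32.4, 41.8, 36.3 and 40.03 CPM in withdrawal. Control 2 and withdrawal 2 made the groups overlap, and the other 8 did not overlap. The log2 change was -0.30 (SE 0.14, edgeR adjusted p = 0.344) with 10 libraries, -0.47 (adjusted p = 0.0127) with 8 and -0.40 (adjusted p = 0.0476) when control 1 was left out too. In the 8 libraries, 11.1% of genes had every withdrawal library below every control.

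Of the tight junction genes, Tjp1 was called, and with 8 libraries only. Cldn5 was at 12.8 to 15.8 CPM in controls and 12.5 to 22.1 CPM in withdrawal, with a log2 change of 0.18 (SE 0.17). Ocln was at 17.3 to 33.3 and 19.8 to 45.1 CPM, with -0.026 (SE 0.27). Tjp1 (ENSMUSG00000030516), which links junction proteins to the cytoskeleton and is not limited to endothelium, was at 140, 154, 147 and 133 CPM in controls and at 114, 163, 110, 134, 113 and 119 CPM in withdrawal. Its log2 change was -0.19 (SE 0.11, edgeR adjusted p = 0.431), and -0.25 with 8 libraries (adjusted p = 0.0464), where withdrawal 4 still exceeded control 4. Among the adhesion genes, Pecam1 had a log2 change of 0.08 (SE 0.11), Cdh5, the cadherin of endothelial junctions, -0.19 (SE 0.25), Esam -0.06 (SE 0.17) and Icam2 0.38 (SE 0.29).

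Ly6c1 (ENSMUSG00000079018) had the smallest unadjusted p of the 36 members. It was at 30.9, 33.7, 26.5 and 27.0 CPM in controls 1 to 4 and at 24.1, 19.8, 19.1, 19.2, 17.8 and 17.8 CPM in withdrawal 1 to 6. Every withdrawal library lay below every control, and withdrawal 1 came closest. The means were 29.5 ± 3.43 CPM (SD, n = 4) and 19.6 ± 2.33 CPM (SD, n = 6). The log2 change was -0.59 (SE 0.11) with an unadjusted edgeR p of 0.000279 and an adjusted p of 0.0959, and -0.52 with 8 libraries (adjusted p = 0.0182). Without withdrawal 2 alone it was called as well (adjusted p = 0.0314), against 814 genes (4.67%), 529 of them lower (3.04%).

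The other surface, secreted and transport genes did not pass in either fit. Itm2a was at 42.0 to 58.5 CPM in controls and 35.1 to 45.9 CPM in withdrawal, and the log2 change was -0.27 (SE 0.12) with an adjusted p of 0.321 by edgeR. Vwf, the clotting factor stored by larger vessels, had -0.40 (SE 0.31), Emcn, a sialomucin of venous and capillary endothelium, -0.14 (SE 0.37), and Slc38a5, a glutamine transporter, -0.55 (SE 0.37). Podxl had -0.0050 (SE 0.20) and Egfl7, a protein secreted by endothelium, 0.10 (SE 0.17). Cd34, a sialomucin of endothelium and progenitor cells, was at 17.6, 85.8, 13.8 and 15.2 CPM in controls and 14.4 to 19.04 CPM in withdrawal. Its log2 change of -0.997 (SE 0.48) rested on control 2: with 8 libraries it was 0.05 (SE 0.10).

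The transcription factors Sox17, Sox18, Erg, Ets1 and Fli1, which maintain endothelial and arterial identity, had log2 changes of -0.20, 0.0057, 0.04, -0.026 and 0.0066. Their SE ranged from 0.16 for Erg and Sox17 to 0.32 for Sox18, and none was called in either fit. Sox18 was lowest in withdrawal 3, at 1.55 CPM, and the other 9 libraries held 3.18 to 5.83 CPM.

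Some members had their lowest or highest values in the same libraries across both groups. Control 2 and withdrawal 3 were the lowest pair for 9 of 36 members (25.0%), against 5.36% of genes tested. These were Pecam1, Kdr, Tie1, Cdh5, Emcn, Vwf, Podxl, Pdgfrb and Anpep. The same libraries had the least choroid plexus RNA, and their meningeal sums of 85.1 and 111 CPM were the lowest. Pdgfra held 54.5 and 62.1 CPM of these sums. At the other end, the 5 libraries with the most choroid plexus RNA, 7418 CPM or more, were the 5 highest libraries of Kdr, Cdh5, Emcn, Vwf and Ocln (13.9% of members, 4.26% of genes tested). They were control 1, 3 and 4 and withdrawal 2 and 6. Emcn was 11.9 to 18.8 CPM in these 5 and 4.75 to 10.1 CPM in the other 5, whereas Flt1 and Tek showed no such order. These orders were noticed in the data, and the part of bordering tissue in them was not tested.

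**Figure D5:**
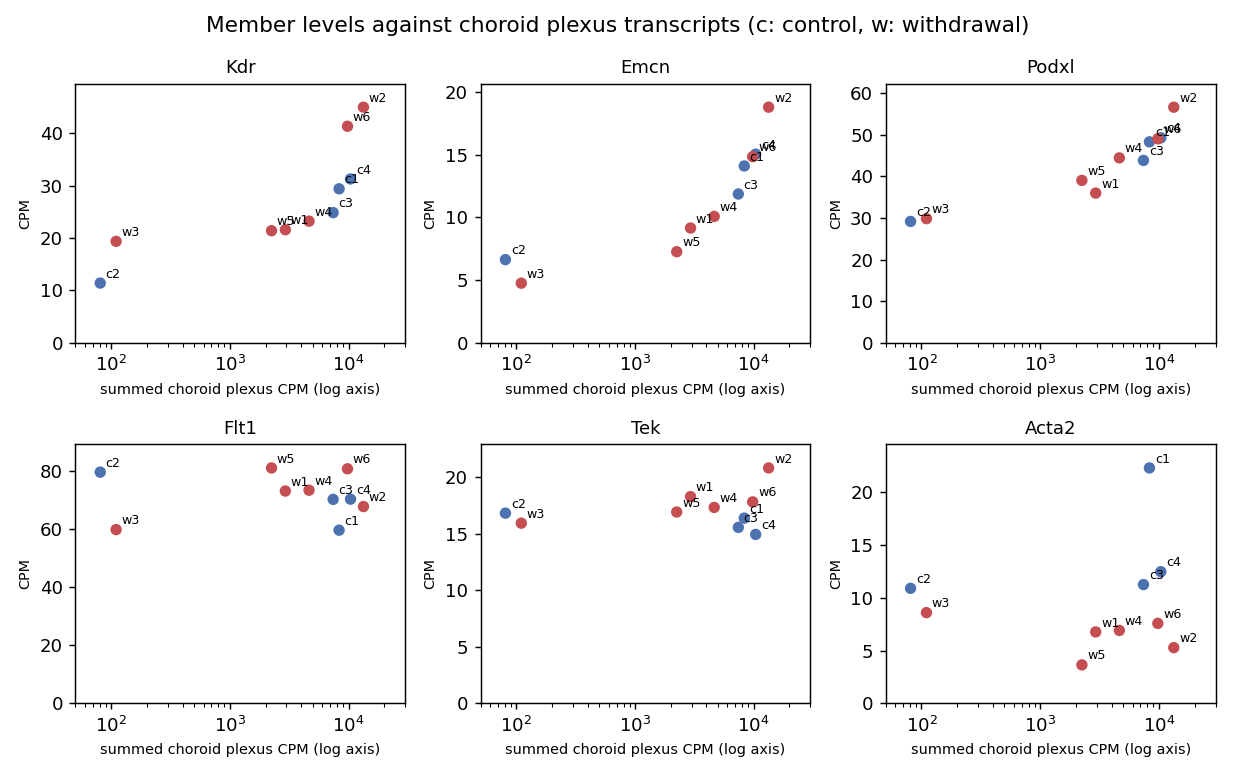
CPM of 6 members (vertical axis, linear from 0) against the summed CPM of 7 choroid plexus markers (horizontal log axis) in each library (c and blue, control; w and red, withdrawal). Kdr, Emcn and Podxl are lowest in the 2 libraries with 80.9 and 110 CPM and highest in withdrawal 2, and Flt1 and Tek are near level. Acta2 is higher in every control than in every withdrawal library. At the low end of the axis these are control 2 (10.9 CPM) and withdrawal 3 (8.60 CPM) alone.

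Other genes with roles in the vessel wall were read from lists beside the members. Whether their transcripts came from vessel cells alone was not tested. Calcrl, for example, was at 7.21 CPM in control 2, 12.8 CPM in withdrawal 2 and 18.8 to 40.9 CPM in the other libraries. Of 16 barrier and transport genes, 1 was called lower with 10 libraries, against 0.138% of all genes tested. It was Mfsd2a, the lipid transporter that keeps vesicle traffic low in barrier endothelium. Mfsd2a was at 22.1 to 31.4 CPM in controls and 10.2 to 12.6 CPM in withdrawal, with no overlap, and the log2 change of -1.18 (SE 0.11) had an adjusted p of 0.00602 by edgeR. Slc7a5 (-0.46), which carries large neutral amino acids, Abcb1a (-0.36), a drug efflux pump, and Slc2a1 (-0.40), the glucose transporter, did not pass with 10 libraries, with adjusted p of 0.0959, 0.140 and 0.194. With 8 libraries 6 of 16 were called lower and 1 higher, against 6.77% and 5.38% of all genes tested. Those called lower included Slc7a5, Abcb1a and Slc2a1, with adjusted p of 0.00609, 0.0124 and 0.00496.

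Of 6 genes of adrenomedullin signalling, a peptide pathway that acts on endothelium, 1 was called lower with 10 libraries, against 0.138% of all genes tested. It was Ramp2, the co-receptor that makes Calcrl an adrenomedullin receptor. Ramp2 was at 14.5 to 24.4 CPM in controls and 5.75 to 8.27 CPM in withdrawal, with no overlap, and the log2 change of -1.29 (SE 0.16) had an adjusted p of 0.0267 by edgeR. Leaving out any single library other than control 2, control 4 or withdrawal 2 ended this call, with adjusted p up to 0.105, and with 8 libraries it was 0.00105. Ackr3, a scavenger receptor, had -0.51 (adjusted p = 0.322) and Ramp3 1.32 (adjusted p = 0.383). With 8 libraries 2 of 6 were called lower, Ramp2 and Ackr3, against 6.77% of all genes tested. Ackr3 had -0.59 there (edgeR adjusted p = 0.0404), and its groups did not overlap.

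None of 16 vascular growth ligands and peptides was called with 10 libraries, with 9 lower and 7 higher. Edn1, the endothelin that constricts arterioles, was at 2.07 to 2.94 CPM in controls and 0.469 to 1.65 CPM in withdrawal, and the log2 change was -1.20 (SE 0.29) with an adjusted p of 0.210 by edgeR. Edn3 had -1.30 (adjusted p = 0.264), and Angpt1, the ligand of Tek, had 0.49 (adjusted p = 0.344). With 8 libraries 1 of the 16 was called lower and 1 higher, against 6.77% and 5.38% of all genes tested. Edn3 was the lower of these (adjusted p = 0.0149). Vegfb, named after its values were seen, was called higher, at 0.34 (edgeR adjusted p = 0.0355). Of 16 genes of the Wnt pathway that induces the barrier, none was called with 10 libraries, and 1 was called lower and 3 higher with 8, against 6.77% and 5.38% of all genes tested. The gene called lower was the Wnt target Apcdd1, with a log2 change of -0.66 (adjusted p = 0.137) with 10 libraries and an adjusted p of 0.0126 with 8. The Wnt target Nkd1 had 0.87 (adjusted p = 0.264) with 10 libraries and was called higher with 8 (adjusted p = 0.0190). The others called higher with 8, Lef1 and Axin2, named after their values were seen, had log2 changes of 0.76 and 0.27 there (adjusted p = 0.0149 and 0.0389). Both were lowest in control 2 and withdrawal 2, which held little habenula RNA. Lef1 was at 2.40 and 7.33 CPM in them and at 12.7 to 32.9 CPM in the other libraries. Axin2 was at 26.9 and 44.4 CPM against 70.0 to 102 CPM. The part of cells other than endothelium in these changes was not tested.

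None of 12 Notch genes, 7 arterial genes, 6 venous genes or 14 further mural genes was called with 10 libraries. The medians of these lists were 0.024, -0.25, 0.25 and -0.10 in that fit. With 8 libraries, 1 Notch, 1 arterial and 1 venous gene were called lower, against 6.77% of all genes tested. In the same fit 1 arterial and 1 further mural gene were called higher, against 5.38%. Named after their values were seen, the Notch gene was Notch2, the venous gene Vcam1 and the higher arterial gene Efnb2. They had -0.76, -0.76 and 0.35 with 8 libraries (edgeR adjusted p = 0.0472, 0.0355 and 0.0302). Heyl, a Notch target of mural cells, had 0.77 with 10 libraries (edgeR adjusted p = 0.372) and was called in neither fit. Mgp, an arterial matrix protein that meningeal cells also make, had -1.38 with 10 libraries (adjusted p = 0.280). With 8 libraries Mgp was called lower, at -2.07 (adjusted p = 0.00450), and the groups did not overlap. In the mural list, Atp13a5, a pericyte ATPase, had 0.56 (adjusted p = 0.264) and was called higher with 8 libraries (adjusted p = 0.0149). Tpm2, a tropomyosin of smooth muscle, had -0.51 (adjusted p = 0.264), and Rgs5, a marker of pericytes, -0.32 (adjusted p = 0.377). Other muscle genes of that list, Mylk, Cnn1 and Des, named after their values were seen, had -0.07, -0.33 and -0.47 with 10 libraries. With 8 libraries they had 0.018, -0.23 and -0.81. None of them was called in either fit.

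Genes that respond to glucocorticoids, a list taken up because earlier results of these data showed it, moved with the groups in the same libraries: 8 of 13 were called lower with 10 libraries, against 0.138% of all genes tested, and their sum was 1111 to 1356 CPM in controls and 488 to 799 CPM in withdrawal. Blood cell transcripts were higher in withdrawal in all 5 haemoglobin and erythroid genes, none past the threshold, at 29.9 to 76.8 CPM in controls and 49.4 to 639 CPM in withdrawal. The 639 CPM was withdrawal 2, and no other withdrawal library exceeded 174 CPM. The median log2 change was 1.91 with 10 libraries and 0.82 with 8. Perivascular macrophage genes summed to 5.72 to 28.9 CPM in controls and 11.5 to 18.5 CPM in withdrawal, with Lyve1 below the level required. The 5.72 CPM was control 2, and the other controls held 23.7 to 28.9 CPM. With 8 libraries 2 of 5 were called lower, against 6.77% of all genes tested. One of them was Cd163, with log2 changes of -1.44 (edgeR adjusted p = 0.194) with 10 libraries and -1.63 (adjusted p = 0.00232) with 8. The part of each in the vessel results was not tested.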

How the data were processed

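Per the labels' protocols, TRIzol was used for extraction and a VAHTS V8 kit for library preparation, with 1 µg of input RNA. The deposited table held raw read counts per gene, and FPKM computed by the authors, per the file headers. cutadapt 1.9.1, HISAT2 2.2.1, HTSeq 0.6.1 and the build mm39 are named in the submitters' processing notes; the annotation release and strand setting are not given in the sources used here, so overlapping and antisense genes may share reads. Symbols came from GENCODE M21 (52073 of 56691 identifiers).

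From the counts, those genes averaging 0.5 FPKM or more over the libraries (17426, holding 99.6% to 99.7% of each library's counts) were tested with edgeR 4.0.16 in R 4.3.3 (quasi-likelihood, TMM, 2-sided, Benjamini-Hochberg over all genes, 0.05). CPM carry TMM factors; scores are mean log2 CPM with a prior count of 2. DESeq2 1.42.0, limma 3.58.1 on log2(FPKM + 1) and log2(FPKM + 0.1), other filters, a replicate block and left-out libraries were alternatives. The fit without control 1, control 2 and withdrawal 2 was added after the data were seen. On simulated counts with 200 changed genes among 17426, edgeR recovered 7.46%, 41.8% and 80.3% of genes changed 1.5-, 2- and 4-fold with 10 libraries, and 50.7%, 85.1% and 97.0% with 8. False calls numbered 4 with 10 libraries and 14 with 8. Noise was drawn for each gene on its own, without the shared tissue differences of the real libraries.

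The members and lists were chosen with earlier results of these data known. All members were named. From each other vessel list, genes past the threshold and otherwise up to 3 with the smallest unadjusted p could be named. Other genes of these lists are marked as named after their values were seen. Depth is the library total; PCR reads carry no molecular identifiers.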

Additional observations from a re-analysis of the deposited data

Results flagged for a closer look

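Within a group of 4 or 6 libraries, 8 of 72 sets of member values had a library whose gap to its nearest neighbour exceeded Dixon's 95% critical value, and chance gives about 1 in 20. Control 1 was the high library for Acta2 (22.3 CPM, next 12.5 CPM), Tagln (4.92 CPM, next 2.46 CPM) and Vtn (63.2 CPM, next 46.9 CPM). Control 2 was the high library for Cd34 (85.8 CPM, next 17.6 CPM) and Erg (5.24 CPM, next 4.33 CPM). It was the low library for Ocln (17.3 CPM, next 31.9 CPM) and Anpep (2.73 CPM, next 11.2 CPM). Withdrawal 1 was the high library for Ly6c1 (24.1 CPM, next 19.8 CPM).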

How the results depend on the processing

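The number of genes called moved from 29 to 407 with DESeq2, 15 and 7 with limma on log2(FPKM + 1) and log2(FPKM + 0.1), 0 with the replicate block, 2116 without control 2 and withdrawal 2, and 1632 without control 1 as well. The number of members called was 3 with DESeq2, 7 without control 2 and withdrawal 2, and 2 without control 1 as well. The cause was not tested beyond the change in libraries. With 1 library left out, 4 to 814 genes and 0 to 1 members were called, and the highest of these values came without withdrawal 2. The median log2 change of the endothelial genes then ran from -0.18 to 0.017, that of the mural genes from -0.52 to -0.33, and the excess of the endothelial over the mural score rose by 0.28 to 0.42. Over 19 alternatives, 16 of 36 members changed sign at least once, none of them while called, and 20 kept it (16 lower, 4 higher). The higher ones were Cldn5, Tek, Icam2 and Notch3. Replicate numbers did not pair the libraries: same-number correlations were 0.024, 0.28, -0.12 and 0.22, and number 2 alone correlated best with its own number. Under the replicate block the adjusted p of Mfsd2a and Ramp2 was 0.240 for each. Replicates 5 and 6 exist in withdrawal only, so under the block they added nothing to the comparison of the groups. With so few libraries left to compare, the lack of calls in that fit says little about any gene. Depth limits the lowest members, such as Higd1b at 0.947 to 2.55 CPM.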

Other observations

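Further genes of the lists were read without a test of their own. Sema3g, an arterial endothelial semaphorin, was at 5.42 to 7.54 CPM in controls and 4.35 to 5.73 CPM in withdrawal, and Bmx, an arterial kinase, at 1.02 to 3.02 and 0.64 to 2.58 CPM. Nr2f2, a transcription factor of venous endothelium, was at 11.5 CPM in control 2, 32.2 to 41.6 CPM in the other controls and 31.4 to 50.6 CPM in withdrawal. Dll4, the Notch ligand of arterial endothelium, was at 1.45 to 2.56 CPM in controls and 2.11 to 3.27 CPM in withdrawal. The groups overlapped for all 4.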
